A study of Homo sapiens with 4 samples.

Results

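Amino acid transporters move amino acids across the plasma membrane, and 8 genes that encode them were followed here in HCEC 1CT cells, an immortalised line derived from human colonic epithelium. The genes were SLC3A2, SLC7A5, SLC7A1, SLC1A4, SLC1A5, SLC38A1, SLC38A2 and SLC6A9, chosen by symbol, and all 8 were found among the 33538 genes listed in the count matrices. Single-cell RNA sequencing was done 3 and 7 days after transduction with a short hairpin RNA against APC (shAPC) or a scrambled hairpin (shScr), in a culture medium with EGF, hydrocortisone, insulin, sodium selenite, transferrin, serum and puromycin that all groups shared. Each combination of hairpin and day was sequenced as 1 library (4 in all), so no difference between groups has a replicate check and no p-value is given. The hairpin against APC was a single sequence in an immortalised line, so that its effects and those of 1 culture cannot be told apart, and the labels (retroviral) and the methods (lentiviral) differ on the virus.

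SLC3A2 is the heavy chain (4F2hc, CD98) that brings light chains such as SLC7A5 (LAT1) to the cell surface, where the pair exchanges large neutral amino acids such as leucine. SLC7A1 (CAT1) carries the cationic amino acids arginine and lysine. SLC1A5 (ASCT2) and SLC1A4 (ASCT1) exchange small neutral amino acids such as alanine and serine, and SLC1A5 also glutamine. SLC38A1 and SLC38A2 (SNAT1 and SNAT2) take up glutamine and alanine with sodium, and SLC6A9 (GLYT1) takes up glycine. When amino acids run short, the kinase GCN2 (EIF2AK4) raises translation of the transcription factor ATF4, whose known targets include several of these transporters, and leucine that enters the cell is sensed at the lysosome by the kinase complex mTORC1.

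The upstream sequences of the paired chains are shown because their transcript levels differed in how they changed at day 3. RefSeq (GRCh38.p14) held upstream windows for 8 of 8 genes, 14 windows in all, each of the 250 bases before a transcription start. Each was searched on both strands for TGATGNAA, a short form of the ATF4 element, and for CACGTG, an E-box. TGATGNAA was in 3.14% of the 35116 windows of all genes, and CACGTG in 6.34%. SLC3A2 had 3 windows and neither motif in any of them. The window shown lies at chr11:62881449-62881698 on the plus strand, overlaps annotated exon sequence and lies within the span of the gene. GENCODE v44 places the gene on the plus strand of chromosome 11 from 62856004 to 62888880 (hg38). The SLC7A5 window, at chr16:87869508-87869757 on the minus strand, lies directly before the gene (minus strand, 87830023 to 87869507), overlaps no annotated exon and holds CACGTG at -130, in capitals.
SLC3A2 upstream: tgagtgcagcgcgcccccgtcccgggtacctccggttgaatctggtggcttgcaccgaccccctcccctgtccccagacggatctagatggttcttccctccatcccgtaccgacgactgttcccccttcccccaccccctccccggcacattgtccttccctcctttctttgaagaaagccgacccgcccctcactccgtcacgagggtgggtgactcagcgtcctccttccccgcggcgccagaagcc
SLC7A5 upstream: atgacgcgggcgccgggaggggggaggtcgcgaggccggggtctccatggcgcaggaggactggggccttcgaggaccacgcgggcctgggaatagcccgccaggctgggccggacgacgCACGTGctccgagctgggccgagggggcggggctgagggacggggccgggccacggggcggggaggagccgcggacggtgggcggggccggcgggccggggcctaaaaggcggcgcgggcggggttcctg
Among the 8 genes, 1 window of SLC1A5 held TGATGNAA, 97 bases before the transcription start of that window (chr19:46784893-46784922, minus strand). That start lies within the span of the gene (minus strand, 46774883 to 46788594). The SLC1A5 window directly before the gene (chr19:46788595-46788844) held neither motif. Another SLC1A5 window, also at a start within the gene, held CACGTG at -50. The TGATGNAA match is set beside that of ASNS, asparagine synthetase (chr7:97872458-97872487, minus strand), with the motif in capitals. Of the other genes searched, windows of CHAC1 and ATF3 also held TGATGNAA, and those of TRIB3, SESN2 and DDIT3 did not. A match of letters is not a binding site. Sequence outside these windows of 250 bases was not searched, so a window without a match does not show that a gene lacks the element.
SLC1A5: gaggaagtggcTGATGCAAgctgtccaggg
ASNS: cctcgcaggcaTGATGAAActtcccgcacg

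The cells kept were 1116 for shScr day 3, 788 for shAPC day 3, 2600 for shScr day 7 and 1478 for shAPC day 7, with 28451455 to 39797418 unique molecular identifiers (UMIs, counts of distinct captured RNA molecules) per library. The median UMIs per cell ranged from 1330 in shScr day 7 to 49685.5 in shAPC day 3. Levels are given as CPM, the UMIs of a gene summed over the cells of a library and scaled to a common total, with exact Poisson 95% intervals that cover counting error only. APC was at 16.1 CPM in shScr against 5.52 in shAPC at day 3, and at 19.1 against 6.61 at day 7. Of 10 markers of colonic epithelium, 6 (EPCAM, CDH1, KRT20, CDX2, VIL1 and LGR5) were at or under 3 UMIs in every library, and all 8 markers of mesenchymal cells were found, with a summed level of 8815 to 11367 CPM against 25.01 to 49.3 CPM for the epithelial list. The immune list was at 17.4 to 29.6 CPM, from CD68 almost alone, and the endothelial list at 0.0320 to 0.126 CPM. Up to 19 cell barcodes were shared between any pair of libraries, the most between both day 3 libraries.

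SLC3A2 was the transporter that stood apart, and it did so in 1 library. Its level was 51.4 CPM (95% interval 49.2 to 53.7, 2046 UMIs) in shScr day 3, 247 CPM (242 to 252, 8627 UMIs) in shAPC day 3, 62.4 CPM (59.6 to 65.2, 1948 UMIs) in shScr day 7 and 49.6 CPM (47.1 to 52.3, 1412 UMIs) in shAPC day 7. The shAPC day 3 library was thus far above the other three, which lay within a narrow span. SLC7A5, the light chain of the same exchanger, was at 60.7, 84.8, 34.5 and 47.9 CPM in the same order. It was higher in shAPC than in shScr on both days and lower at day 7 than at day 3 with either hairpin.

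SLC38A2 was the most abundant of the 8, at 256, 248, 268 and 237 CPM, and varied least in proportion. Because each UMI marks the 3′ end of 1 molecule, levels of different genes were compared without a correction for length. In shAPC day 3 the intervals of SLC3A2 (242 to 252 CPM) and SLC38A2 (243 to 253 CPM) overlapped, so those genes could not be put in order there. SLC1A5 was at 68.0, 87.7, 44.5 and 52.2 CPM, the order of libraries seen for SLC7A5. SLC38A1 stayed between 55.7 and 71.2 CPM. SLC7A1, the arginine and lysine carrier, was at 30.3, 26.7, 26.2 and 20.0 CPM.

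SLC1A4 and SLC6A9 were scarce. SLC1A4 was at 5.30, 7.01, 4.61 and 7.35 CPM, from 144 to 245 UMIs per library. SLC6A9 was at 4.37, 5.55, 1.54 and 4.39 CPM, with 48 UMIs in shScr day 7 against 125 to 194 in the other libraries. SLC6A9 overlaps CCDC24 and the noncoding gene ENSG00000230615 on the opposite strand, which held 101 to 168 and 122 to 203 UMIs, and strand-specific counting was not stated. Summed over the 8 genes, the level was 542 CPM in shScr day 3, 778 in shAPC day 3, 502 in shScr day 7 and 474 in shAPC day 7. Most of the difference between the day 3 sums came from SLC3A2, at 51.4 CPM in shScr and 247 CPM in shAPC.

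**Figure D1:**
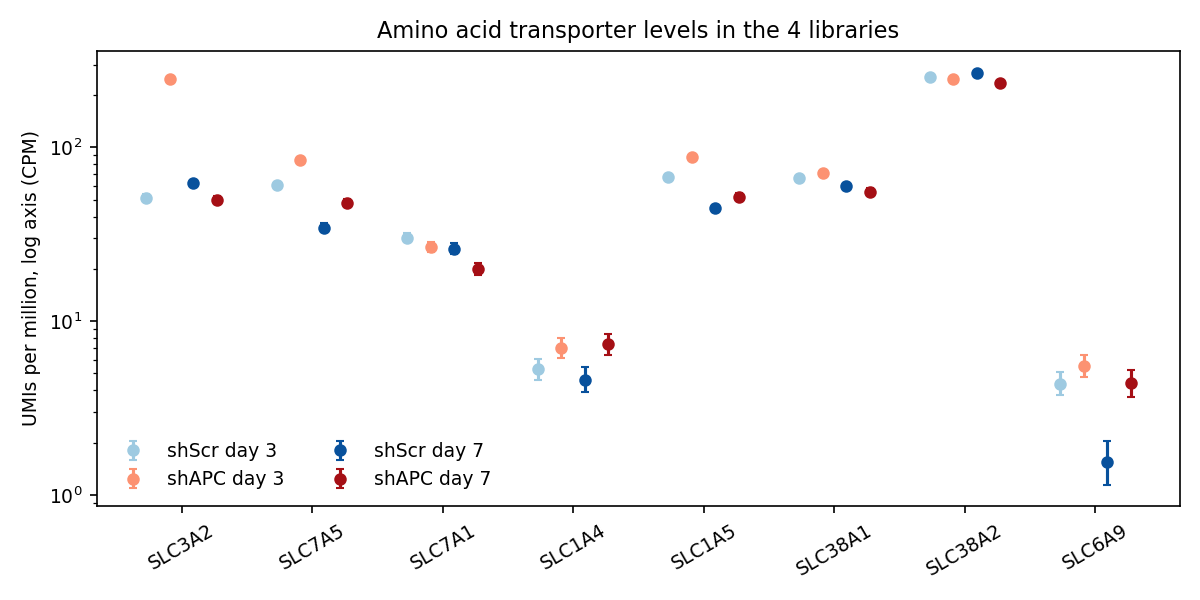
Level of each transporter gene in the 4 libraries, in CPM on a log axis, with bars for the exact Poisson 95% interval. SLC3A2 in shAPC day 3 (247 CPM) is set off from its other 3 points (49.6 to 62.4 CPM), while SLC38A2 lies between 237 and 268 CPM throughout.

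The hairpin libraries of day 3 were compared by the shAPC against shScr ratio. That ratio cannot tell APC depletion apart from other effects of the hairpin, the virus or the culture. Ratios are given as log2 differences of CPM relative to the median of all genes that reached 20 CPM in either library, a median that was 0.28 at day 3 over 5175 genes. A gene was counted as higher or lower at a 2-fold relative difference, and 6 of the 8 transporters were abundant enough for the count. SLC3A2 was 4.80-fold higher in shAPC (4.58 to 5.04) before that subtraction and 3.97-fold (3.78 to 4.16) after it, a relative log2 ratio of 1.99 (1.92 to 2.06) that ranked it 23 from the top of 5175 genes. It was the 1 transporter of 6 counted as higher, where 2.13% of all genes were. None was counted as lower, against 0.87% of all genes.

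The other transporters moved little at day 3. SLC7A5 had a relative log2 ratio of 0.21 (0.13 to 0.29), SLC1A5 of 0.09 (0.02 to 0.17) and SLC38A1 of -0.17 (-0.25 to -0.09), or 0.10 when not centred on all genes. SLC38A2 was at -0.32 (-0.36 to -0.28) and SLC7A1, the lowest, at -0.45 (-0.58 to -0.33). The median of the 6 was -0.04, against 0 for all genes by construction. The ratio of SLC1A5 turned to -0.01 with TMM scaling, and the intervals of SLC1A4 (0.13, -0.14 to 0.40) and SLC6A9 (0.07, -0.23 to 0.37) held 0. In cells of 10000 to 30000 UMIs, of which shAPC day 3 held 37, the ratios of SLC7A5 and SLC1A5 changed sign to -0.61 and -0.41.

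**Figure D2:**
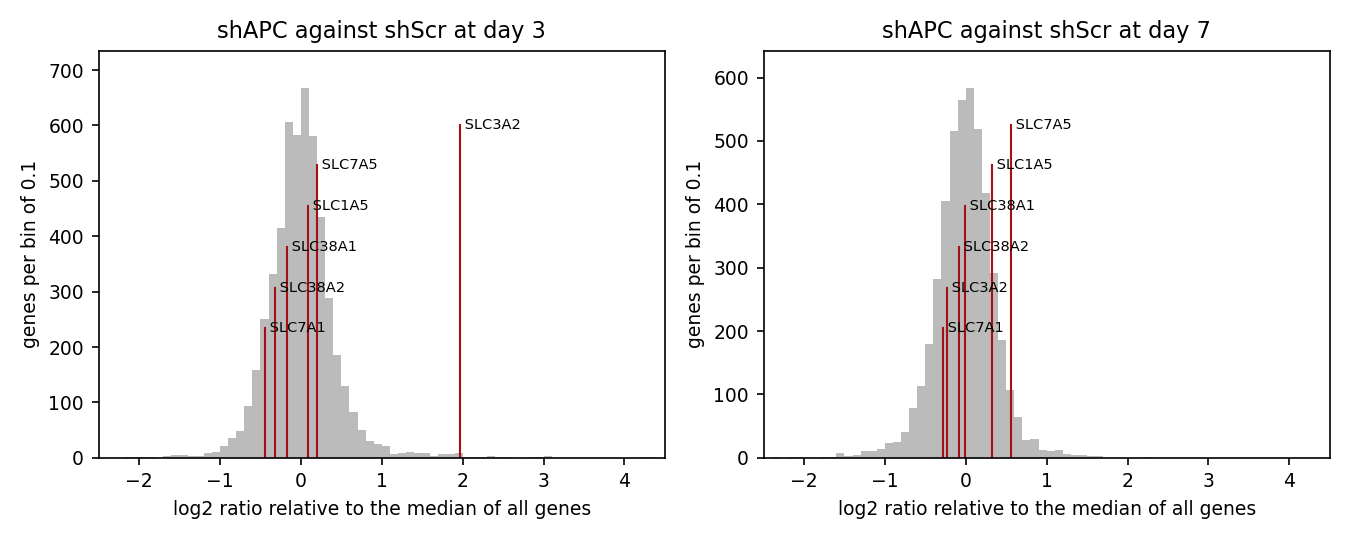
Number of genes in bins of 0.1 of the shAPC against shScr log2 ratio, relative to the median of all genes, at day 3 (5175 genes) and day 7 (4573 genes), with a red line at each of the 6 transporters abundant enough for the count; line height is set only to keep names apart. At day 3 SLC3A2 (drawn with the pseudocount, at 1.97) lies in the far right tail and the others lie within the body. At day 7 SLC7A5 (drawn at 0.557, rank 213 from the top) lies just above the 95th percentile of all genes (0.542). The other transporters lie within the body at day 7.

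At day 7 SLC3A2 was no longer higher in shAPC, with a relative log2 ratio of -0.23 (-0.33 to -0.13) that turned to 0.25 without the cells with an ATF3 UMI and to 0.20 in cells of 10000 to 30000 UMIs. SLC7A5 was 1.48-fold higher (1.37 to 1.61, log2 0.57) and SLC1A5 1.25-fold higher (1.16 to 1.35, log2 0.32). SLC38A1 (-0.01, -0.11 to 0.09) did not differ beyond its interval, SLC38A2 was at -0.09 (-0.13 to -0.04) and SLC7A1 at -0.29 (-0.45 to -0.14). As a mean over cells of CPM, SLC38A2 turned to 0.30 and SLC7A1 to 0.11. Of the 6 counted, none reached 2-fold in either direction, where 1.01% of 4573 genes were higher and 1.27% lower. Among the scarce genes, SLC1A4 was 1.70-fold higher (1.37 to 2.12) and SLC6A9 3.05-fold higher (2.17 to 4.35), the latter against the 48 UMIs of the shScr library.

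Between the days, SLC7A5 and SLC1A5 were lower at day 7 with either hairpin (except in shAPC cells of 10000 to 30000 UMIs, at 0.58 and 0.16), and SLC3A2 only in shAPC. In shScr, SLC3A2 was at 0.23 (0.14 to 0.32), a sign that turned to -0.30 without the cells with an ATF3 UMI. There, SLC7A5 was at a relative log2 ratio of -0.86 (-0.97 to -0.76) at day 7 against day 3 and SLC1A5 at -0.66 (-0.76 to -0.57), while SLC38A2 stayed at 0.02 (-0.03 to 0.06). No transporter reached 2-fold, though SLC7A5 did (-1.20) after cells were thinned to 2000 UMIs, against 0.263% of 4556 genes higher and 0.966% lower. SLC6A9, not in that count, was at -1.56 (-2.05 to -1.09). In shAPC, SLC3A2 was 3.94-fold lower at day 7 (log2 -1.98, -2.06 to -1.90) and was the 1 of 6 counted as lower, where 2.43% of 5176 genes were lower and 0.599% higher. SLC7A5 was at -0.49 (-0.58 to -0.40) and SLC1A5 at -0.41 (-0.51 to -0.33) in shAPC. SLC1A4 (0.40, 0.13 to 0.67) and SLC38A2 (0.27, 0.22 to 0.31) were higher at day 7 there relative to all genes. When not centred on all genes, SLC1A4 was at 0.07 with an interval that held 0 (-0.21 to 0.34), and SLC38A2 turned to -0.069. The relative ratios of SLC7A1, SLC38A1 and SLC6A9 had intervals that held 0. These comparisons share libraries with those between hairpins and are not separate evidence.

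**Figure D3:**
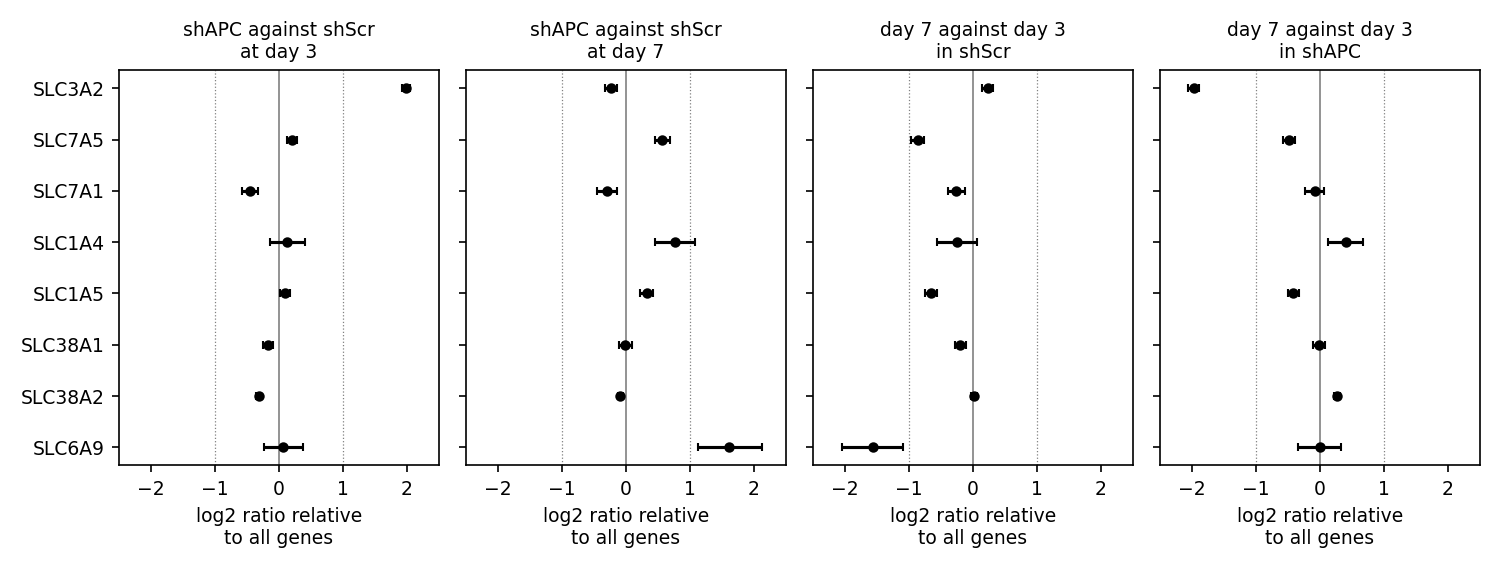
Relative log2 ratio of each transporter in the 4 comparisons, with bars for the exact conditional binomial 95% interval (counting error only) and dotted lines at 2-fold. SLC3A2 is at 1.99 in the day 3 comparison and -1.98 between the days in shAPC, and SLC6A9 is at 1.61 at day 7 with a wide interval from 1.12 to 2.12.

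The higher level of SLC3A2 in shAPC day 3 was held largely by a minority of cells. To compare cells at 1 depth, those of at least 20000 UMIs were thinned to that number, which left 689, 554, 799 and 781 cells in the day 3 shScr and shAPC and the day 7 shScr and shAPC libraries, in that order. The median cell had 1 SLC3A2 UMI in both day 3 libraries and 0 in both day 7 libraries. At least 11 SLC3A2 UMIs were found in 53 of 554 cells of shAPC day 3 (9.57%) but in 0 of 689, 8 of 799 (1.00%) and 9 of 781 (1.15%) cells of the other libraries. By an approximate limit of 3 over the number of cells, 0 of 689 cells allows a share of up to 0.435%. The highest cell held 78 UMIs in shAPC day 3 and 9 in shScr day 3. Those 53 cells held 64.5% of the library's SLC3A2 UMIs at this depth. The other 501 cells averaged 1.45 UMIs, against 0.951 over all shScr day 3 cells.

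**Figure D4:**
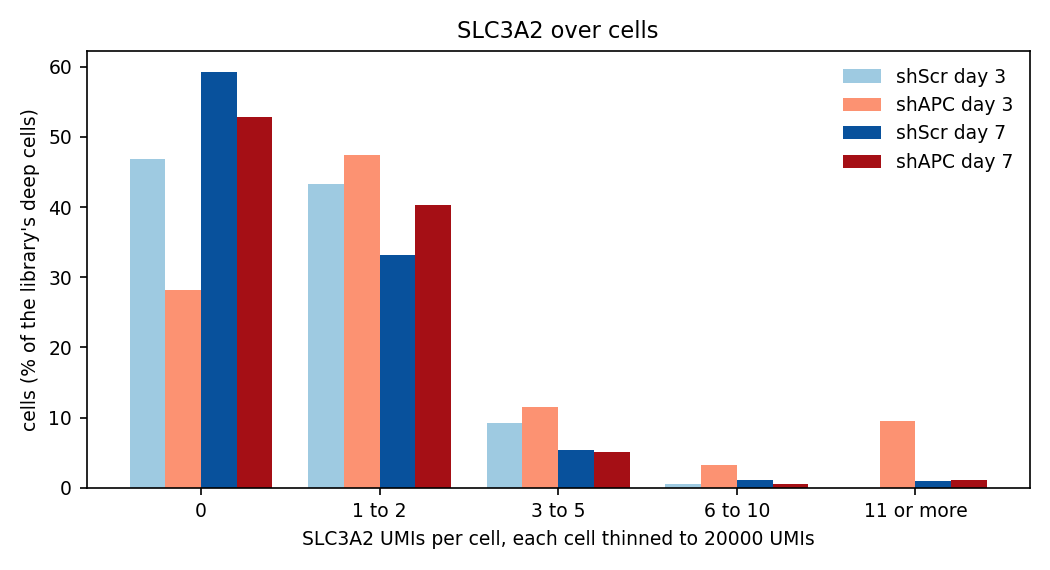
Share of cells in classes of SLC3A2 UMIs per cell, for cells of at least 20000 UMIs thinned to 20000 UMIs, by library. The class of 11 or more holds 9.57% of shAPC day 3 cells and 0% to 1.15% of the cells of the other libraries, and the class of 0 holds 28.2% against 46.9% to 59.3%.

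In 3 of the 4 libraries SLC3A2 was spread more unevenly over cells than the other transporters, and in shScr day 3 it was not. The variance over the mean of UMIs per cell (Fano factor, near 1 for counting noise) was 18.5 for SLC3A2 in shAPC day 3, 6.60 in shScr day 7, 5.95 in shAPC day 7 and 1.57 in shScr day 3, where SLC7A5 was at 2.19 and SLC38A2 at 2.49. For the other 7 genes it ranged from 0.969 (SLC6A9) to 3.48 (SLC7A5) over the 4 libraries. After thinning to 2000 UMIs, which keeps more cells, 20.2% of shAPC day 3 cells (136 of 673, 17.2 to 23.4) had an SLC3A2 UMI, against 8.90% (7.12 to 10.95) in shScr day 3, 8.93% (7.38 to 10.7) in shScr day 7 and 6.53% (5.14 to 8.17) in shAPC day 7. Unthinned shares were 58.4% in shScr day 3, 73.4% in shAPC day 3, 28.2% in shScr day 7 and 39.0% in shAPC day 7. For SLC38A2 the thinned share was 33.5% to 36.0% in every library. The libraries hold 1 cell line, so no cell type that lacks these genes was there to measure the free RNA background.

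The 53 cells rich in SLC3A2 were chosen by that gene, and their other features are given as a description. They had a median of 96122 UMIs and 1.39% mitochondrial UMIs, against 56922 UMIs and 3.89% for the other 501. At 20000 UMIs per cell, the mean of SLC7A5 was 3.40 UMIs in them against 1.58, that of SLC1A5 3.83 against 1.38, and that of SLC38A1 2.15 against 1.36. SLC38A2 was the exception, at 3.11 against 5.60. Among genes of the ATF4 response, DDIT3 (the transcription factor CHOP) averaged 18.1 against 0.890, NUPR1 18.5 against 2.62, TRIB3 6.89 against 0.509, ATF3 6.02 against 0.148 and ATF4 6.58 against 3.38 UMIs. The summed mitotic list of 15 genes was at 5.47 against 12.0 UMIs. The part that cell size, doublets or mitochondrial content had in this was not tested.

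The 40 cells above the 95th percentile of total UMIs held 49.6% of the SLC3A2 UMIs of shAPC day 3 but 12.6% of all its UMIs, at 973 CPM against 142 CPM in the rest of the library. In shScr day 3 the corresponding values were 57.5 and 50.4 CPM. Without those top cells in either library, the day 3 relative log2 ratio of SLC3A2 was 1.30. By depth, SLC3A2 in shAPC and shScr at day 3 was at 449 against 128 CPM in cells under 2000 UMIs, 242 against 54.6 from 2000 to 10000, 95.1 against 48.0 from 10000 to 30000 and 249 against 51.2 CPM in cells of 30000 or more. The shAPC library was higher in all 4 depth classes, least in the third class, which held 37 shAPC cells and gave a relative log2 ratio of 0.95, short of 2-fold. In that class SLC7A1 (-1.62, from 8 UMIs in shAPC) and SLC38A2 (-1.12, from 74 UMIs in shAPC) passed 2-fold lower in shAPC.

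Cells with a UMI of ATF3, a stress-induced transcription factor, were compared with the rest within each library after thinning to 2000 UMIs. There were 4 such cells of 899 in shScr day 3, 23 of 673 in shAPC day 3, 14 of 1198 in shScr day 7 and 3 of 1087 in shAPC day 7. In shAPC day 3, SLC3A2 was at 1276 CPM (1221 to 1332) in the 23 cells and 196 CPM (191 to 201) in the other 650. In shScr day 7 it was at 871 CPM (794 to 954) against 42.5 CPM (40.2 to 45.0). In shScr day 3 (59.0 against 51.0 CPM) the interval of the ratio held 0, and in shAPC day 7 the level was 112 against 48.1 CPM, from 7 and 10 UMIs in the cells with ATF3. SLC7A5 was at 151 against 81.9 CPM in shAPC day 3 and 133 against 33.4 in shScr day 7. SLC1A5 was at 167 against 84.0 and 131 against 42.4 CPM in the same libraries. SLC38A2 went the other way in both, at 157 against 253 and 161 against 273 CPM, but not in the 3 cells of shAPC day 7 (347 against 236 CPM, with a ratio whose interval held 0). Without the cells with an ATF3 UMI, the relative log2 ratio of SLC3A2 was 1.69 at day 3, against 1.99 with all cells, and 0.25 at day 7. Marking cells after thinning misses cells with few ATF3 UMIs, so that the cells left are not free of ATF3.

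**Figure D5:**
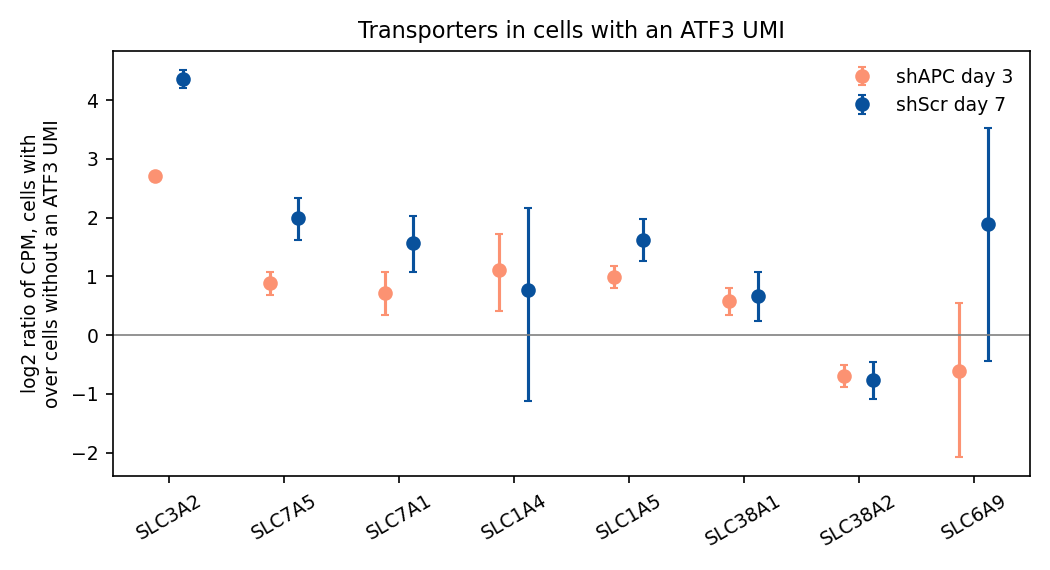
Log2 ratio of CPM in cells with an ATF3 UMI over cells without one, for each transporter, in shAPC day 3 (23 and 650 cells) and shScr day 7 (14 and 1184 cells), with exact conditional binomial 95% intervals. SLC3A2 is highest (2.70 and 4.36) and SLC38A2 is below 0 in both (-0.69 and -0.76).

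Across the 554 deep cells of shAPC day 3, thinned counts of SLC3A2 correlated (Pearson r) at 0.76 with DDIT3, 0.75 with NUPR1, 0.68 with ASNS, 0.67 with TRIB3, 0.67 with SESN2 and 0.60 with CHAC1. These were the highest values in a list of 20 ATF4 response genes. The rest of that list ran from 0.52 (ATF3) to -0.13 (EIF2AK4), with ATF4 itself at 0.41 and ALDH1L2 at 0.01. Among transporters r was 0.38 with SLC1A5, 0.27 with SLC7A5 and -0.19 with SLC38A2. Spearman's rho was lower for DDIT3 (0.50) and NUPR1 (0.47). In the 799 cells of shScr day 7, r was 0.79 with DDIT3 and 0.78 with NUPR1, with rho of 0.24 for either. For DDIT3 and NUPR1, r was 0.68 and 0.54 in the 781 cells of shAPC day 7. It was lower in the 689 cells of shScr day 3, at 0.28 and 0.22. The cells of a library share its preparation, and these values are descriptions.

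Dividing cells were compared with the rest by a UMI of the mitotic list after thinning, as log2 ratios of CPM within each library. SLC7A1 was higher in the mitotic cells of shScr day 3 (38.2 against 27.3 CPM, log2 0.49, 0.31 to 0.66), shScr day 7 (33.2 against 23.5, 0.50, 0.29 to 0.71) and shAPC day 7 (25.3 against 18.6, 0.45, 0.17 to 0.72), but not of shAPC day 3 (26.4 against 27.0, -0.03, -0.24 to 0.18). SLC1A5 had the same pattern with smaller ratios, at 0.21, 0.26 and 0.24 in those 3 libraries and -0.09 (-0.21 to 0.02) in shAPC day 3. SLC38A2 was lower in mitotic cells of the same 3 libraries, at -0.13, -0.33 and -0.21, and at -0.01 (-0.08 to 0.06) in shAPC day 3.

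The paired chains differed from this. SLC3A2 was lower in mitotic cells of shAPC day 3 (214 against 259 CPM, log2 -0.27, -0.34 to -0.20) and of shScr day 7 (45.7 against 62.9 CPM, -0.46, -0.62 to -0.30), with intervals that held 0 in the remaining libraries. SLC7A5 was lower in those of shAPC day 3 (-0.48, -0.60 to -0.35) and shAPC day 7 (-0.22, -0.42 to -0.02). SLC6A9 was lower in 3 libraries (-0.57, -0.76 and -0.91), from 16 to 38 UMIs in the mitotic cells, and the intervals of SLC1A4 and SLC38A1 held 0 in all 4. These intervals cover counting error only, and SLC3A2 was uneven over cells (Fano factor 18.5 in shAPC day 3, 6.60 in shScr day 7). In shScr day 7 the cells with an ATF3 UMI held 466 SLC3A2 UMIs, against 1261 in the cells without one. A few cells can thus set the SLC3A2 ratios, and the mitotic comparison was not repeated without them.

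The wider family of amino acid transporters was mostly scarce in these cells. Of 33 further genes, 6 were abundant enough for the count at day 3 and 4 at day 7, and the only one that passed 2-fold was SLC7A2, a cationic amino acid transporter like SLC7A1. SLC7A2 was at 58.7 CPM in shScr day 3, 30.6 in shAPC day 3, 73.4 in shScr day 7 and 19.2 in shAPC day 7, so that it was lower in shAPC on both days (relative log2 -1.21 and -1.84). SLC7A11, the cystine carrier xCT and also a partner of SLC3A2, was at 57.8, 57.3, 54.4 and 67.8 CPM in the same order and was not higher in shAPC at day 3 (relative log2 -0.29). SLC38A5, a glutamine transporter, was at 63.5, 82.3, 50.1 and 44.4 CPM. The median of this list was -0.03 at day 3 and 0.11 at day 7.

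The ATF4 response list of 20 genes held more genes past 2-fold. At day 3, 19 were abundant enough, 6 were at least 2-fold higher in shAPC and 0 lower, where 2.13% and 0.87% of all genes were, with a list median of 0.32. The 6 were ATF3 (1.03 CPM in shScr against 44.7 in shAPC), DDIT3 (16.6 against 178), SESN2 (12.7 against 57.1), TRIB3 (16.6 against 67.9), CHAC1 (8.90 against 27.0) and ASNS (15.2 against 38.2). SESN2 encodes a leucine-binding inhibitor of mTORC1, CHAC1 degrades glutathione and TRIB3 is a pseudokinase induced by ATF4. ATF4 itself was at 183 against 189 CPM, CEBPB at 138 against 202 and NUPR1 at 163 against 260. At day 7, 0 of 13 passed 2-fold, where 1.01% of all genes were higher and 1.27% lower, and the median was 0.29. Between the days, 1 of 11 was higher in shScr (DDIT3, 16.6 to 48.3 CPM), against 0.263% of all genes, and 5 of 19 were lower in shAPC (ATF3, DDIT3, TRIB3, NUPR1 and CHAC1), against 2.43%.

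Among 20 genes of lysosomal amino acid sensing, 0 of 12 passed 2-fold at day 3, 0 of 10 at day 7 and 0 of 11 between the days in shScr. The 1 of 12 that did so in shAPC was FLCN, folliculin, a regulator of the Rag GTPases, at 31.2 CPM at day 3 and 9.28 at day 7. The Ragulator subunits LAMTOR5 (221 to 274 CPM), LAMTOR1 (168 to 212 CPM) and LAMTOR4 (135 to 168 CPM) were the most abundant.

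Over the 4 libraries, the genes whose centred log2 CPM profile lay nearest to SLC3A2 were NFKBIE, IRF1, SERPINB2, IFI35 and OAS3, at root mean square differences of 0.11 to 0.18. NFKBIE, the nearest, was at 7.01, 33.0, 9.80 and 6.50 CPM. None of the 8 transporters was among them, and SLC7A5 ranked 670 of 5299 by likeness to SLC3A2. The nearest to SLC7A5 were PCK2, BCL9L, AAK1, ABCA1 and ANKRA2, at 0.038 to 0.069, and SLC1A5 ranked 21. With 4 libraries, likeness rests on 4 points.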

How the data were processed

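Single-cell libraries of HCEC 1CT cells were analysed, 1 per group, from 4 deposited matrices of raw UMI counts. The authors aligned reads to GRCh38 (hg38) and counted UMIs with Cell Ranger, and the count matrices name version 3.0.2 for shScr and 3.0.0 for shAPC in their headers, so that version and hairpin cannot be told apart. The submitters' processing notes also name STAR. The 10x kit is v2 in the labels and V3 in the methods. The annotation release was not given in the sources used here.

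Barcodes with at least 200 genes, 500 UMIs and under 5% UMIs of the 13 mitochondrial genes were kept, from 1471, 1047, 3652 and 3035 barcodes for the day 3 shScr and shAPC and the day 7 shScr and shAPC libraries. No doublets were removed and no doublet caller was run. UMIs were summed per library and scaled to CPM. Ratio intervals are exact conditional binomial and shares exact binomial (Clopper-Pearson), all 95% and for counting error only. The limit for a class without cells was approximate, as 3 over the number of cells. The median of all genes used a pseudocount of 1 CPM. With 1 library per group no test was run. Shares were taken after thinning to 2000 UMIs.

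The genes and lists were chosen with earlier results of these data known. All 8 transporters are named. Of each related list the genes at least 2-fold different in a comparison and the 3 with most UMIs are named, and for SLC3A2 and SLC7A5 the 5 nearest profiles. The cells of 11 or more SLC3A2 UMIs and the cells of highest UMI totals were described after their values had been seen. Alternatives were other scalings (edgeR 4.0.16 TMM, DESeq2 1.42.0 size factors), filters, thinning and cell subsets. Python 3.11.15 with numpy 2.4.6, scipy 1.17.1 and pandas 2.3.3 and R 4.3.3 were used, and scripts were tested on simulated counts.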

Additional observations from a re-analysis of the deposited data

Results flagged for a closer look

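The shAPC against shScr ratio of SLC3A2 differed between the days. The relative log2 ratio was 1.99 at day 3 and -0.23 at day 7, a difference (day 7 minus day 3) of -2.22 with a counting interval of -2.34 to -2.10. SLC3A2 was higher in the shAPC library at day 3 and lower in it at day 7. With 1 library per group the difference was not tested against the variation between cultures. Without the cells with an ATF3 UMI, the ratios were 1.69 and 0.25, so that the day 7 value changed sign but stayed below that of day 3.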

How the results depend on the processing

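No paired analysis was possible because each group held 1 library, and for the same reason no replicate could be left out. Over the alternatives, 448 ratios of the 8 genes were recomputed, of which 307 stayed within their counting interval, 123 moved beyond it and 18 changed sign where that interval did not hold 0. A further 19 values changed sign where it did, and they are counted among the 307 and the 123. At day 3 SLC3A2 stayed higher in shAPC throughout. Its log2 ratio was 2.26 when not centred on all genes, 1.88 with TMM, 1.90 with DESeq2 size factors, 1.80 with all barcodes, 1.83 with a mitochondrial limit of 10%, 1.30 without the 5% of cells with most UMIs, 1.47 as a mean over cells, 1.91 after thinning, 1.69 without ATF3 cells and 0.95 in cells of 10000 to 30000 UMIs, the one value under 2-fold. The last subset and that of cells of at least 2000 UMIs were chosen after seeing the data. The 18 sign changes, with changes in medians and counts, were as follows. Not centred, SLC38A1 at day 3 was 0.10 and SLC38A2 between the days in shAPC -0.069. With TMM SLC1A5 at day 3 was -0.013. Without the cells with most UMIs it was -0.057, and SLC3A2 between the days in shScr -0.12. As a mean over cells SLC38A1 at day 3 was 0.050, and at day 7 SLC7A1 was 0.11 and SLC38A2 0.30. After thinning SLC38A1 between the days in shScr was 0.13. Without ATF3 cells SLC3A2 was 0.25 at day 7 and -0.30 between the days in shScr. In cells of 10000 to 30000 UMIs, at day 3 SLC7A5 was -0.61 and SLC1A5 -0.41, at day 7 SLC3A2 was 0.20, between the days in shScr SLC3A2 was -0.42 and SLC38A1 0.14, and in shAPC SLC7A5 was 0.58, SLC1A5 0.16 and the median of the transporters 0.57, and 2 transporters passed 2-fold at day 3 (SLC7A1 and SLC38A2, both lower) and 2 between the days in shAPC (SLC3A2 lower, SLC38A2 higher). Of the ratios whose interval held 0, the widest changes of sign were also in these cells or in the mean over cells. At day 3 SLC6A9 was -1.70. In shAPC between the days SLC7A1 was 0.89, SLC38A1 0.84 and SLC6A9 1.97. In shScr SLC1A4 was 0.57 and was also above 0 as a mean over cells. These values rest on few UMIs in cells of 10000 to 30000 UMIs. There, shAPC day 3 held 1 UMI of SLC6A9, 8 of SLC7A1 and 24 of SLC38A1, and shScr day 3 held 8 of SLC1A4. With genes of at least 100 CPM the median in shScr was 0.0015, from 1 gene. SLC7A5 passed 2-fold between the days in shScr, giving a count of 1, as a mean over cells and after thinning. The causes were not tested. SLC1A4 and SLC6A9, at 48 to 245 UMIs per library, are limited by depth.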

Other observations

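In shAPC day 7 the 9 deep cells with at least 11 SLC3A2 UMIs had a mean of 5.11 SLC7A5 UMIs per 20000, against 0.953 in the other 772, and 1.56 SLC38A2 UMIs against 5.01. In shScr day 7 the 8 such cells had 2.63 SLC7A5 UMIs against 0.735 and 3.50 SLC38A2 UMIs against 5.77. ATF3 averaged 18.5 UMIs in the 8 cells of shScr day 7 and 1.56 in the 9 cells of shAPC day 7. The cells are few and were chosen by SLC3A2, so these values describe them only.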
